A study of Mus musculus with 24 samples.

Results

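Hippocampal gene expression was compared between vehicle-dosed 5xFAD mice and untreated wild-type mice, using the input libraries of an m6A immunoprecipitation study. The members were 8 of the 24 libraries of the series, taken by their labels. They came from 4 animals of genotype 5xFAD with the treatment vehicle and 4 age-matched wild-type animals with no treatment. The comparison was chosen with earlier results of these data known. The series also holds 4 inputs of 5xFAD mice treated with MS1262, and 1 m6A immunoprecipitated (IP) library for each of the 12 animals. An input library is poly(A) RNA set aside before the antibody step and copied by the SMART-seq method, so it measures transcript abundance. Age, sex and strain background were not given in the labels used here. The wild-type animals received no vehicle, so that genotype and dosing cannot be told apart.

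5xFAD is a mouse model of Alzheimer's disease that carries human transgenes with familial mutations, APP among them, driven by the Thy1 promoter in neurons. Its neurons make large amounts of amyloid-β, which is deposited in plaques, and microglia and astrocytes gather around these and change their expression. Microglia at plaques are known for a program of lysosomal proteases, lipid handling genes and surface receptors, alongside which astrocytes become reactive. In bulk tissue of this kind, more or fewer cells of a type and more or less RNA per cell cannot be told apart.

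The 8 libraries held 20.7 to 43.2 M estimated counts, and levels are given as CPM, counts scaled to a common library total after TMM scaling, as mean ± SD over 4 animals. A gene was called at an adjusted p below 0.05 in edgeR's quasi-likelihood test on the 12 input libraries, and was termed held when it was also called, with the same sign, in each of 8 fits that left out 1 of the 8 animals. Of 17693 genes tested, 187 were called higher in vehicle animals (1.06% of those tested) and 91 lower (0.514%). Of these, 68 higher genes (0.384%) and 24 lower genes (0.136%) were held. Among all tested genes 1251 (7.07%) had no overlap in CPM between the 2 groups, and 90 of the 92 held genes were among them. The median log2 fold change of all tested genes was 0.0093.

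The input library of vehicle animal 3 stood apart from the other 7, and results are given with and without it where it moves them. It held 42 genes that lay at least 4-fold (2 on the log2 scale) above the highest of the other 7 libraries, against 0 to 6 such genes in each of the others. Of these 42, 14 were markers of the choroid plexus, the epithelium of the ventricles that makes cerebrospinal fluid and lies against the hippocampus. The summed level of the 19 choroid plexus markers tested was 21800 CPM in this library. It was 957, 767 and 976 CPM in vehicle animals 1, 2 and 4, and 959, 899, 2970 and 855 CPM in wild-type animals 1 to 4. Wild-type animal 3 was thus the second highest, and the remaining 6 animals lay within 767 to 976 CPM.

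Single choroid plexus genes showed the same ranking. Ttr, the thyroxine carrier that is the main secreted product of this epithelium, read 55.8, 59.3, 748 and 31.3 CPM in wild-type animals 1 to 4 and 63.5, 55.4, 7045 and 69.8 CPM in vehicle animals 1 to 4. Enpp2, which encodes the phospholipase autotaxin and is also made by oligodendrocytes, reached 13593 CPM in vehicle animal 3, against 639 to 2024 CPM in the other 7. The potassium channel gene Kcnj13 reached 237 CPM against 2.52 to 32.6 CPM, the prolactin receptor gene Prlr 256 CPM against 14.0 to 51.8 CPM, and Kl, which encodes klotho, 117 CPM against 7.98 to 18.9 CPM. The tight junction gene Cldn2 read 41.3 CPM against 0.664 to 2.46 CPM. Each of these genes was highest in vehicle animal 3, and none was called in the comparison of the groups.

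Ependyma, the ciliated lining of the ventricle wall, did not follow the choroid plexus. The summed level of its 14 markers was 114 CPM in vehicle animal 3 and 71.9 to 125 CPM in the other 7 animals. A fit with the choroid plexus and ependyma genes removed called 191 genes higher and 92 lower, against 187 and 91 with them. Beyond this and leaving the animal out, the part of either tissue in the results below was not tested.

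Xist, the noncoding RNA made from an inactive X chromosome, read 1.29 CPM (33 counts) in vehicle animal 3 and 24.2 to 48.2 CPM in the other 7. The Y-linked genes Ddx3y, Eif2s3y, Kdm5d and Uty had 0 to 4 counts in each of the 12 input libraries, vehicle animal 3 included, with 0 counts for all 4 genes in that animal. The IP library with the same number showed the same pair of readings, with 19000 CPM of choroid plexus markers and 0.937 CPM of Xist, where the other IP libraries of vehicle and wild-type animals had 813 to 2920 CPM and 20.6 to 43.1 CPM. Both libraries numbered 3 of the vehicle group therefore stood apart in the same way.

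**Figure D1:**
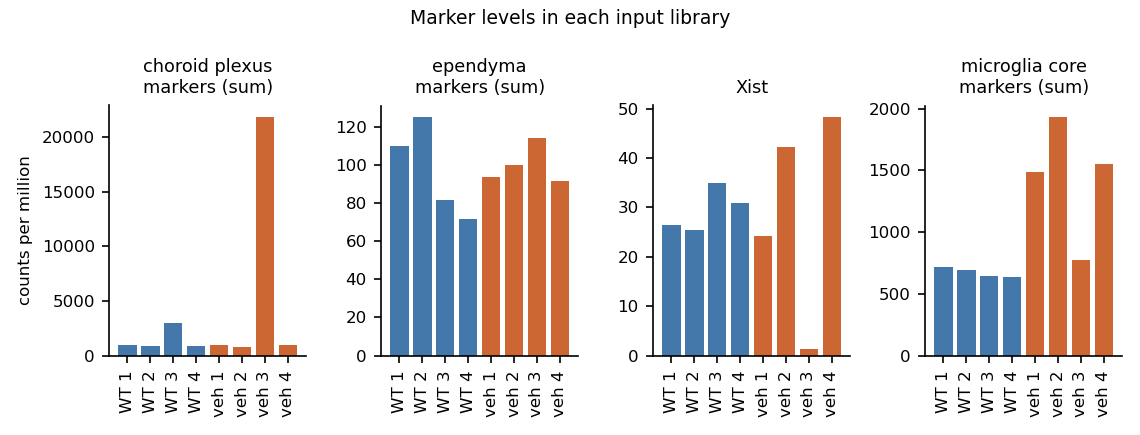
Summed CPM of choroid plexus, ependyma and microglia core markers and CPM of Xist (vertical axes, linear from 0) in the 4 wild-type (WT, blue) and 4 vehicle (veh, orange) input libraries. Vehicle animal 3 has 21800 CPM of choroid plexus markers and 1.29 CPM of Xist, and its microglia core sum of 773 CPM lies nearest the wild-type animals.

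With all 8 animals, the 19 choroid plexus markers had a median log2 fold change of 1.81, with all 19 above 0. Without vehicle animal 3 that median was −0.63. No marker was called either way. For Ttr the log2 fold change went from 3.02 (SE 1.48, edgeR adjusted p = 0.419) to −1.84 (adjusted p = 0.461), and for Enpp2 from 1.87 (adjusted p = 0.345) to −0.54 (adjusted p = 0.518). Slc13a4, a sulfate carrier gene that meningeal cells also express, was the marker with the smallest p. It read 5.12, 1.77, 5.49 and 4.83 CPM in wild-type and 11.95, 3.98, 22.5 and 15.1 CPM in vehicle animals, and its log2 fold change of 1.64 (adjusted p = 0.135) became 1.26 (adjusted p = 0.283) without animal 3. The choroid plexus difference between the groups thus rested on 1 animal.

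Vehicle animal 3 also had the lowest level of immune genes in its group. The 24 microglia core markers summed to 773 CPM in it, against 1490, 1930 and 1550 CPM in vehicle animals 1, 2 and 4 and 635 to 717 CPM in wild-type animals. For the 30 markers of plaque-associated microglia the sums were 2570 CPM in animal 3, 3420, 4080 and 3440 CPM in the others, and 1850 to 2050 CPM in wild-type animals. Over the 68 held higher genes, the median distance from the wild-type mean was 1.85, 2.34, 1.09 and 1.73 log2 units in vehicle animals 1 to 4. Vehicle animal 3 was the nearest to wild-type for 50 of the 68 genes. Over the 24 held lower genes the 4 animals were closer together, at −2.02, −1.79, −1.62 and −1.68, and animal 3 was the nearest to wild-type for 4 of them. These held genes were chosen by this same contrast, so that the distances describe the animals and test nothing.

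**Figure D2:**
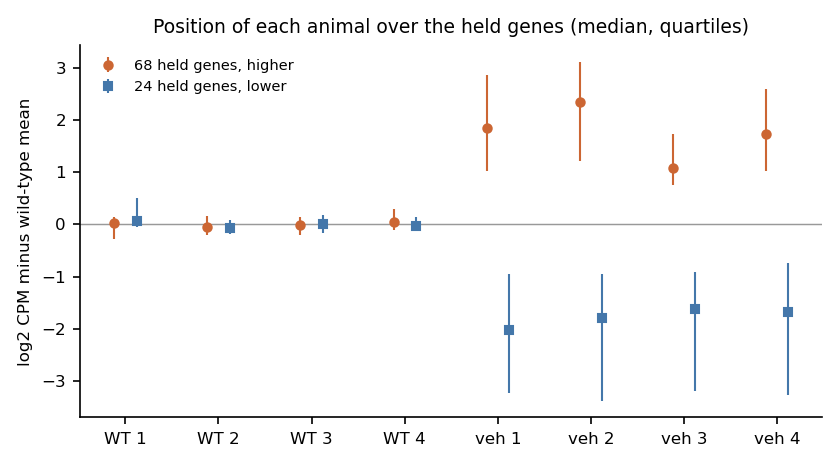
Position of each animal over the held genes, as log2 CPM minus the wild-type mean of the same gene (vertical axis). Points are medians and bars quartiles over 68 higher (orange) and 24 lower (blue) genes. Vehicle animal 3 has the smallest rise, a median of 1.09, while its fall of −1.62 lies beside those of the other 3.

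Leaving out vehicle animal 3 changed which immune genes passed. Of 278 genes called with all 8 animals, 211 were called without it and 67 were not. Another 85 genes were called without it alone, 72 of them higher. The microglia core count went from 13 to 20 of 24 genes, myeloid signalling from 3 to 11 of 23, and Fc and pattern recognition receptors from 5 to 12 of 19. Among the genes gained, chosen here after their values were seen, was Trem2, which encodes a lipid-sensing receptor of microglia. It read 7.35, 5.01, 5.09 and 4.10 CPM in wild-type and 11.9, 21.9, 4.59 and 20.9 CPM in vehicle animals, so that only animal 3 lay within the wild-type range. Its log2 fold change was 1.46 (edgeR adjusted p = 0.0685) with animal 3 and 1.74 (adjusted p = 0.00155) without. Aif1, the gene of the microglial protein Iba1, behaved likewise, with 11.1 to 14.2 CPM in wild-type animals and 25.4, 31.2, 11.5 and 24.3 CPM in vehicle animals (log2 0.85, adjusted p = 0.0929, against 1.06 and 0.0016). The purinergic receptor-like gene Gpr34 read 50.1 CPM in animal 3 and 98.4 to 131 CPM in the other vehicle animals, against 50.5 to 61.2 CPM in wild-type.

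**Figure D3:**
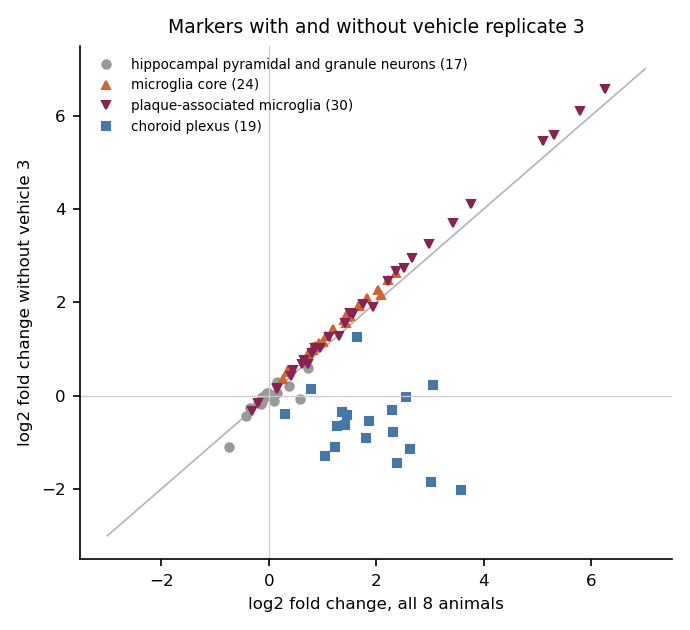
Log2 fold change of marker genes with all 8 animals (horizontal axis) and without vehicle animal 3 (vertical axis), with the line of equality in grey. The 19 choroid plexus markers leave the line, their median going from 1.81 to −0.63, while the 24 core and 30 plaque-associated microglia markers and the 17 markers of pyramidal and granule neurons stay near it.

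The transgenes were checked first through Thy1 and mouse App. Thy1, a surface glycoprotein gene of neurons whose promoter drives the transgenes (GRCm38 chromosome 9, 44043384 to 44048579), read 88.7, 89.4, 107 and 99.5 CPM in wild-type and 482, 746, 273 and 384 CPM in vehicle animals. The groups did not overlap, and Thy1 rose 4.90-fold (log2 2.29, SE 0.24, edgeR adjusted p = 0.000239). Reads of the transgene cassette and of endogenous Thy1 cannot be told apart in this table. All 4 vehicle animals, animal 3 included, were therefore above the wild-type animals at this gene. Counts of mouse App, the precursor of amyloid-β, were 543, 556, 686 and 616 CPM against 593, 592, 566 and 482 CPM (log2 −0.10, SE 0.10, adjusted p = 0.726). App was not called.

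Lysosomal proteases and their inhibitors were higher in vehicle animals, with 9 of 16 cathepsin and cystatin genes called higher, 7 held and none lower. The same list had 7 to 9 calls in the single omissions, and 9 without vehicle animal 3. The minimum of 7 follows from the definition of held. All 16 tested members lay above 0, with a median log2 fold change of 0.73. Many of these genes are strongly expressed in microglia, and several stand in the plaque-associated microglia list as well.

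Ctsd encodes cathepsin D, the main aspartic protease of lysosomes. It read 185, 252, 184 and 187 CPM in wild-type and 483, 715, 384 and 593 CPM in vehicle animals, without overlap, a 2.69-fold rise (log2 1.43, SE 0.17, edgeR adjusted p = 0.000794). Ctss, the cysteine protease cathepsin S that trims the invariant chain in antigen presenting cells, read 176, 174, 146 and 153 CPM in wild-type and 489, 616, 214 and 471 CPM in vehicle animals (log2 1.46, SE 0.24, adjusted p = 0.00627). Vehicle animal 3 was the lowest of its group for both. Ctsz, which encodes the carboxypeptidase cathepsin Z, rose 2.95-fold, from 24.0 ± 1.87 to 70.9 ± 24.8 CPM (SD, n = 4, log2 1.56, SE 0.22, edgeR adjusted p = 0.00234).

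The other held members spanned a wide range. Ctsh, an aminopeptidase gene, rose 2.46-fold, from 11.2 to 14.3 CPM in wild-type to 20.8 to 39.4 CPM in vehicle animals. Ctsc, which activates the granule serine proteases of immune cells, rose 1.83-fold. Ctse, an aspartic protease of endosomes, was near 0 in wild-type animals (0.186 to 0.533 CPM) and read 8.86, 35.4, 2.00 and 9.63 CPM in vehicle animals. Cst7 encodes cystatin F, an inhibitor of cathepsin C and related proteases, and read 0.22 to 0.484 CPM in wild-type and 32.3, 59.0, 7.49 and 22.5 CPM in vehicle animals. For 6 of these 7 held genes vehicle animal 2 was the highest and animal 3 the lowest of the group, and for Ctsc animal 4 was the lowest, at 60.7 CPM. Ctsl (log2 0.15, SE 0.09, adjusted p = 0.536), named after its values were seen, was not called although it was well counted, at 146 ± 15.4 against 162 ± 11.5 CPM.

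The promoters of 3 held genes are shown because they hold motifs of factors that are known to act on lysosomal, myeloid and interferon genes. Each runs from 250 bases before to 50 bases after a RefSeq start (GRCm38.p6), 5′ to 3′ on the gene's strand, and capitals mark the motif on either strand. Ctsd (chr7:142387778-142388077, minus strand) holds CACGTGAC, the core of the CLEAR element bound by the lysosomal regulator TFEB, at 2 places before the start. Ctss (chr3:95526536-95526835, plus strand) holds GAGGAAGT, the core of the site of PU.1, the myeloid lineage factor. Ccl3 (chr11:83649329-83649628, minus strand) holds GAAANNGAA, the core of the interferon response element.
Ctsd: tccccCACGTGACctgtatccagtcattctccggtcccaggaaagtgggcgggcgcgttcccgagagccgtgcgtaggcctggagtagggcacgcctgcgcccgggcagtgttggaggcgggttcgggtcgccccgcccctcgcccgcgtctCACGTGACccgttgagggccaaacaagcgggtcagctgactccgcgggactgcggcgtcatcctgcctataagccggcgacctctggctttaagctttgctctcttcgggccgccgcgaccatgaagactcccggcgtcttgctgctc
Ctss: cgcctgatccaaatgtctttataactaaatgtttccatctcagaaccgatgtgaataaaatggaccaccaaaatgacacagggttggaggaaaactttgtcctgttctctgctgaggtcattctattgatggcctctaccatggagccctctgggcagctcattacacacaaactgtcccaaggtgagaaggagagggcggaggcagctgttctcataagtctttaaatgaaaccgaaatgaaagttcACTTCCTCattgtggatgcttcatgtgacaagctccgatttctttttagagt
Ccl3: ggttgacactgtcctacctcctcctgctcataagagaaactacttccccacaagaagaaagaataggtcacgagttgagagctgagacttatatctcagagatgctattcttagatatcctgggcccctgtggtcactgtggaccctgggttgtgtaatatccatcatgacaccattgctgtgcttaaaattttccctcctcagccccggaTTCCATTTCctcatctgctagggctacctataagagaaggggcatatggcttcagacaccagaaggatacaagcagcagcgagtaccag

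Among 12554 tested genes with a promoter in the reference table, 541 (4.3%) held CACGTGAC on either strand. It was present in 3 of 46 held higher genes (6.5%), namely Ctsd, Gna13 and Pbxip1, and in 0 of 10 held lower genes. In the lysosomal and cathepsin lists together it was present in 8 of 34 (23.5%). GAGGAAGT was found in 427 promoters of tested genes (3.4%) and in 3 of the 46, which were Ctsc, Ctss and Mmp12. GAAANNGAA was found in 1108 (8.8%) and in 6 of the 46, against 10 of 16 in the interferon-stimulated list. Ctss is counted for the last 2 motifs, and its capitals mark GAGGAAGT alone, read on the opposite strand. A match is a description of the letters and not a bound site.

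Membrane proteins and hydrolases of the lysosome followed in part. Of 28 tested, 9 were called higher, 4 held and none lower, with a median log2 fold change of 0.48. Npc2, which hands cholesterol out of the lysosome, differed most evenly between animals. It read 79.7, 76.8, 72.5 and 73.7 CPM in wild-type and 113, 119, 127 and 124 CPM in vehicle animals (1.59-fold, log2 0.67, SE 0.08, edgeR adjusted p = 0.00113). Cd63, a tetraspanin of late endosomes and exosomes, rose 1.66-fold, from 112 ± 7.03 to 186 ± 17.6 CPM. For both genes vehicle animal 3 lay among the highest of its group, unlike for the cathepsins. Grn, the gene of progranulin, whose loss causes lysosomal storage in neurons, rose 1.95-fold, and Cd68, a macrophage lysosomal glycoprotein gene, 4.09-fold. Lamp1, named after its values were seen, read 151 ± 21.7 against 161 ± 7.43 CPM and was not called (log2 0.09, adjusted p = 0.761).

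The proton pump that acidifies lysosomes and the autophagy machinery were level. Of 19 subunit genes of the vacuolar pump, 1 was called and held, and the median log2 fold change was −0.04. The called gene was Atp6v0d2, which encodes an isoform of the d subunit known from osteoclasts and macrophages. It had 2 counts in all in wild-type animals and 149 in vehicle animals (2.096, 2.16, 0.196 and 0.351 CPM), a ratio of 84.2 with an exact 95% interval of 22.9 to 702 that covers counting error only. None of 22 autophagy genes was called (median 0.02). The 2 with the smallest p were Pik3c3 (log2 −0.22, SE 0.08, adjusted p = 0.267) and Atg5 (log2 −0.20, adjusted p = 0.423). The rise of lysosomal transcripts was thus one of proteases and of membrane and lipid proteins, without called genes among the ubiquitous pump subunits or autophagy genes.

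**Figure D4:**
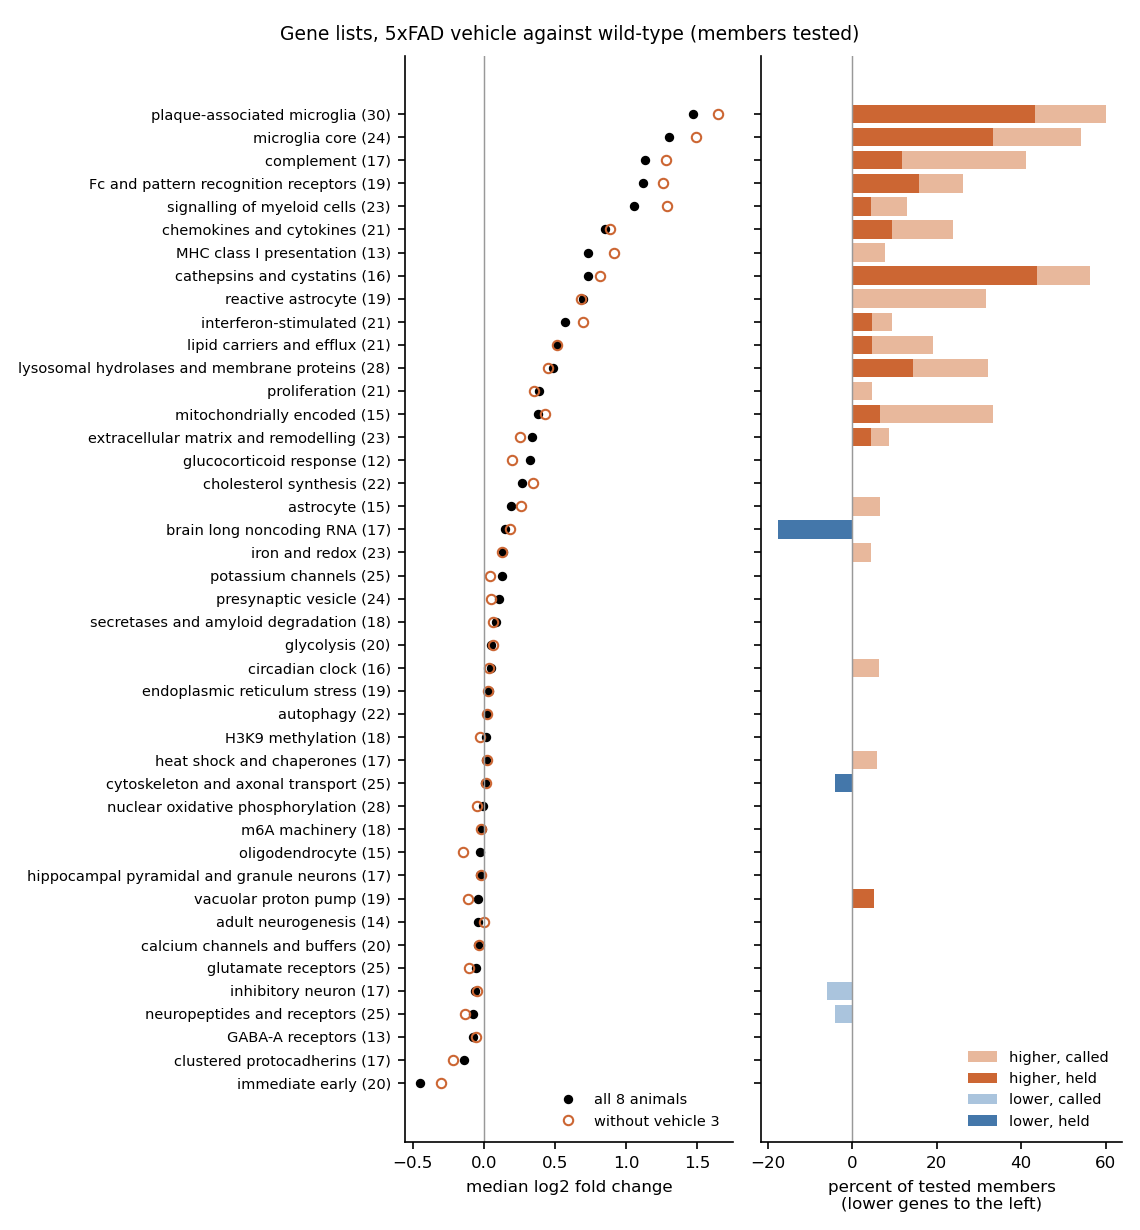
Gene lists ordered by the median log2 fold change of vehicle over wild-type (left, filled for all 8 animals, open without vehicle 3) with the percent of tested members called (pale) and held (dark) on the right, higher genes to the right of 0 and lower genes to the left. The number of members tested stands in brackets. Microglial and cathepsin lists have the most calls, and the neuronal lists lie near 0, except the immediate early genes at −0.45.

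Receptors, complement and chemokines of immune cells were also called. Of 17 complement genes 7 were called higher and 2 held. C3ar1, the receptor of the complement fragment C3a, read 1.51, 1.77, 3.82 and 3.73 CPM in wild-type and 14.97, 22.2, 6.83 and 13.6 CPM in vehicle animals (5.35-fold, log2 2.42, SE 0.36, edgeR adjusted p = 0.00406). C1qc rose in the full fit (log2 1.51, adjusted p = 0.0124) and missed the threshold without wild-type animal 4 (adjusted p = 0.0592). C4b rose as well (log2 1.87, adjusted p = 0.0177), and its call ended without wild-type 2, 3 or 4 (adjusted p up to 0.0609). The complement count as a whole fell to 2 without wild-type animal 4 and rose to 9 without vehicle animal 3.

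Of 19 Fc and pattern recognition receptor genes 5 were called higher and 3 held, and all 19 lay above 0. Cd14, the co-receptor for bacterial lipopolysaccharide, read 8.39, 7.96, 5.71 and 7.51 CPM in wild-type and 25.1, 34.1, 12.6 and 20.3 CPM in vehicle animals, and rose (log2 1.63, SE 0.25, edgeR adjusted p = 0.00415). Tlr2, which binds bacterial lipoproteins and has been linked to amyloid-β, rose 5.01-fold from a low level (0.451 to 0.834 CPM in wild-type, 1.33 to 4.27 CPM in vehicle animals). Msr1, the macrophage scavenger receptor that takes up modified lipoproteins, rose 4.33-fold. For Cd14 and Tlr2 vehicle animal 3 was the lowest of its group, still above the wild-type animals.

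Of 21 chemokine and cytokine genes 5 were called higher, among them the held Ccl3 and Ccl6, chemokine genes that lie 60 kb apart on chromosome 11. Ccl3 read 0.0531 to 0.145 CPM in wild-type and 4.34, 9.89, 1.37 and 2.31 CPM in vehicle animals (log2 5.31, SE 0.65, edgeR adjusted p = 0.000873). Cxcl16 rose to 2.06 ± 0.541 CPM from 0.718 ± 0.161 CPM, but its call and that of Cxcl10, a chemokine induced by interferon, ended in each omission except that of vehicle animal 3 (adjusted p up to 0.112 and 0.134).

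The interferon response was slight beside this. Of 21 interferon-stimulated genes 2 were called higher, with a median log2 fold change of 0.57. Without vehicle animal 3, 3 were called higher and the median was 0.70. Lgals3bp, which encodes a secreted galectin-binding glycoprotein, was held, and read 4.38, 3.85, 3.12 and 4.31 CPM in wild-type and 7.54, 8.53, 8.24 and 9.36 CPM in vehicle animals (2.14-fold, SE of the log2 change 0.16, edgeR adjusted p = 0.00329). Ifitm3, an antiviral membrane protein gene, was called (log2 0.81, adjusted p = 0.0383) but missed the threshold in 7 of the 8 omissions, all but that of vehicle animal 4 (adjusted p up to 0.115). Of 13 genes of MHC class I presentation 1 was called, the light chain gene B2m. It read 72.7 to 84.2 CPM in wild-type animals and 162, 163, 92.7 and 162 CPM in vehicle animals (log2 0.87, adjusted p = 0.0193), and lost its call on removing wild-type animal 1, 3 or 4, or vehicle animal 1 or 2 (adjusted p up to 0.072). Of the 13 MHC class I genes, 3 were called higher without vehicle animal 3, with H2-K1 (edgeR adjusted p = 0.0434) and H2-D1 (0.0483) gained. Of 23 genes of myeloid signalling 3 were called, of which the adaptor gene Lcp2 was held (2.48-fold). The actin-bundling gene Lcp1 (log2 1.20, adjusted p = 0.0163) lost its call on removing wild-type animal 3 or 4, or vehicle animal 2 (adjusted p up to 0.0646). The transcription factor gene Irf8 (log2 1.32, adjusted p = 0.0483) lost it in each omission except that of vehicle animal 3.

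Outside the microglia lists, 47 higher genes were held. The 10 of largest fold change were taken among those with a mean log2 CPM of at least 1 over the 8 libraries and no overlap of the groups, leaving out predicted genes and pseudogenes. Hjurp, the gene of the chaperone that loads the centromere histone CENP-A, read 1.49, 1.91, 2.02 and 3.39 CPM in wild-type and 10.96, 11.6, 12.2 and 12.9 CPM in vehicle animals (5.38-fold, log2 2.43, SE 0.23, edgeR adjusted p = 0.000121). The 4 vehicle animals lay close together, animal 3 at 12.2 CPM among them. Tent5c, a poly(A) polymerase gene known from plasma cells, rose 4.05-fold and read 4.39 CPM in animal 3 against 4.79, 6.89 and 6.12 CPM in the other vehicle animals.

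Others of these 10 genes are known from immune cells. Mpeg1, the pore-forming perforin-2 gene of macrophages, rose 4.70-fold, from 2.07 ± 0.653 to 9.81 ± 3.74 CPM (SD, n = 4). Cd84, a homophilic receptor of the SLAM family, rose 3.91-fold, and read 6.12 CPM in vehicle animal 3 against 16.5 to 17.3 CPM in the other 3. Rab7b, a small GTPase gene of endosomes, rose 3.74-fold, and it lies 50 kb from Ctse on chromosome 1. Tmem106a, a macrophage membrane protein gene, rose 3.79-fold, and Lsp1, a leukocyte actin-binding protein gene, 3.26-fold. Held genes outside these limits had larger fold changes, among them 3 named after their values were seen. Lilrb4a, an inhibitory receptor gene of leukocytes, read 0.106 to 0.389 CPM in wild-type and 1.46 to 8.67 CPM in vehicle animals. Cd200r4, of the CD200 receptor family, read 0.0484 to 0.132 CPM against 1.02 to 6.33 CPM. The long noncoding RNA A830036E02Rik read 0.265 to 2.33 CPM against 11.8, 25.7, 17.6 and 10.9 CPM (log2 4.21, SE 0.51, edgeR adjusted p = 0.00085).

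Further held higher genes, each with no overlap of the groups, are named here after their values were seen. Pbxip1, a nuclear receptor cofactor gene, read 34.7, 31.6, 33.7 and 33.3 CPM in wild-type and 58.6, 64.6, 66.8 and 59.1 CPM in vehicle animals (log2 0.90, SE 0.11, edgeR adjusted p = 0.00113). Fxyd1, which encodes the sodium pump regulator phospholemman, rose 2.00-fold, and vehicle animal 3 was the highest at 106 CPM. Its log2 fold change was 1.00 with animal 3 and 0.84 without. Ogfrl1, named for its likeness to an opioid growth factor receptor, rose 1.96-fold to 533 ± 84.9 CPM. Gna13, a G protein α subunit gene, rose 1.65-fold, and the annexin genes Anxa3 and Anxa4, of calcium-dependent membrane binding proteins, rose 2.35-fold and 1.94-fold. Ucp2, an uncoupling protein gene of the mitochondrial inner membrane, rose 2.09-fold, and Adhfe1, an alcohol dehydrogenase gene of mitochondria, 1.85-fold. Gm1966, a predicted gene, had no counts in the wild-type animals and 131 in the vehicle animals, at least 12.7-fold higher against a floor of 3 counts per library.

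**Figure D5:**
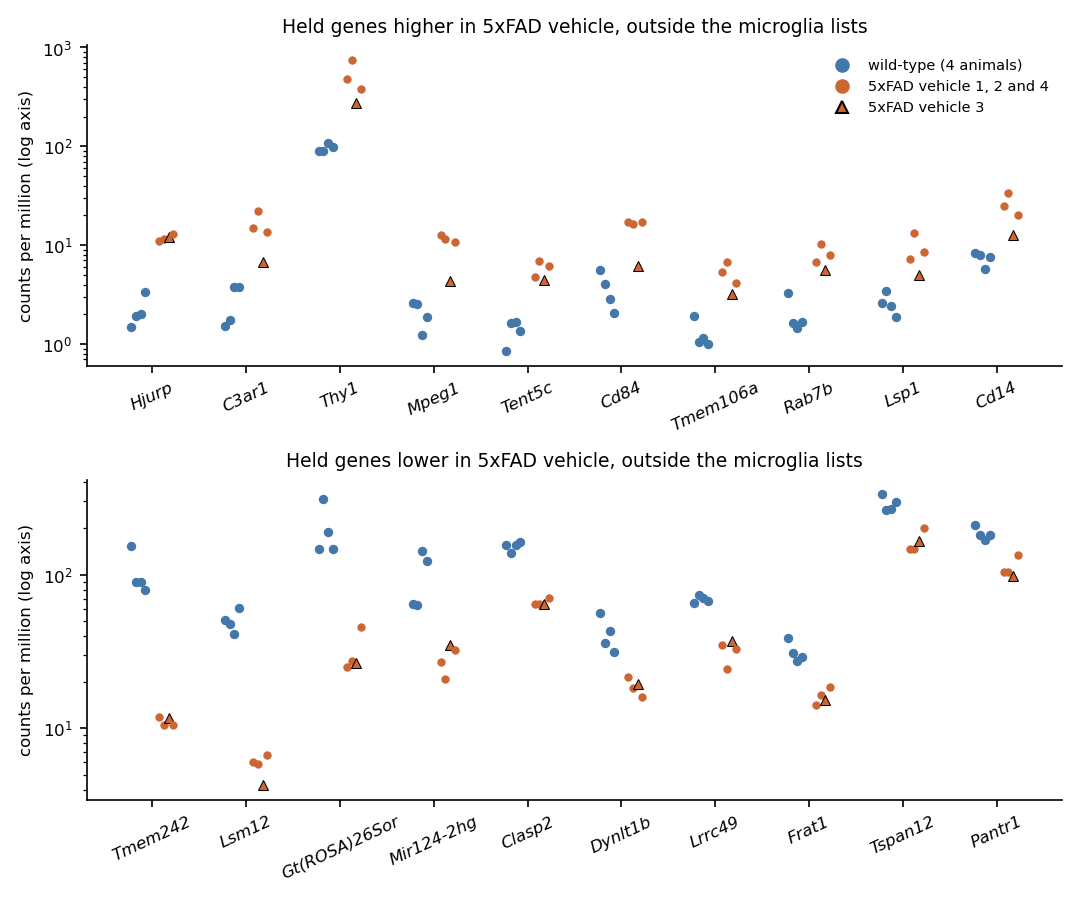
CPM (log axis), by animal, of the 10 held genes with the largest fold change in each direction among those with a mean log2 CPM of at least 1, no overlap of the groups, no predicted gene or pseudogene and no place in a microglia list, with wild-type in blue, vehicle in orange and vehicle animal 3 as a triangle. The 2 groups do not overlap for any of these 20 genes; for Hjurp animal 3 reads 12.2 CPM beside its group, and for Cd84 it reads 6.12 CPM below it.

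Of 19 reactive astrocyte genes 6 were called higher and 0 held. The count fell to 0 without wild-type animal 4, to 1 on removing wild-type animal 2 or 3, or vehicle animal 2, and to 2 without wild-type 1 or vehicle 1 or 4, and it was 6 without vehicle 3. Osmr, the oncostatin M receptor gene, read 3.35 to 4.503 CPM in wild-type and 11.7, 16.7, 5.30 and 11.2 CPM in vehicle animals (log2 1.56, SE 0.29, edgeR adjusted p = 0.0157, up to 0.0593 over the omissions). Igfbp5, which binds insulin-like growth factors, read 60.2 to 73.4 CPM against 111, 115, 76.7 and 115 CPM (log2 0.67, adjusted p = 0.0254, up to 0.083). Of the 19 reactive genes 17 lay above 0 and 2 below. Named after their values were seen, Gfap was called (log2 1.52, edgeR adjusted p = 0.0449) and kept its call in 2 omissions. Serpina3n lay below 0 (log2 −0.14, edgeR adjusted p = 0.9). Of the 15 general astrocyte markers 1 was called, Clu.

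Of 21 genes of lipid carriers and efflux 4 were called higher, of which Npc2 was held. Clu, the gene of the chaperone and apolipoprotein clusterin, read 703 to 867 CPM in wild-type and 993 to 1223 CPM in vehicle animals (log2 0.53, SE 0.10, edgeR adjusted p = 0.0205). Apoe, the gene of the main cholesterol carrier of the brain, read 100.0, 94.8, 84.6 and 77.7 CPM in wild-type and 127, 146, 111 and 161 CPM in vehicle animals (log2 0.61, SE 0.12, adjusted p = 0.02). Both genes had no overlap between the groups, yet lost their calls on removing wild-type animal 3 or 4, or vehicle animal 2 (adjusted p up to 0.083 and 0.0794). Plin2, a lipid droplet coat gene, rose 1.51-fold, and its call ended in 6 omissions, all but those of wild-type 2 and vehicle 3 (adjusted p up to 0.103). None of 22 cholesterol synthesis genes was called with all animals (median 0.27). Without vehicle animal 3, 3 were called, among them Fdps (log2 0.46, adjusted p = 0.1, against 0.57 and 0.00628) and Hmgcs1 (0.39, adjusted p = 0.141, against 0.49 and 0.0202).

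Matrix, redox and other single genes were called outside the groups above. Of 23 extracellular matrix genes 2 were called higher. Mmp12, macrophage elastase, was held and read 0 to 0.0726 CPM in wild-type and 0.235 to 2.44 CPM in vehicle animals. Spp1, which encodes the phagocyte product osteopontin, read 9.37, 8.74, 17.2 and 33.5 CPM in wild-type and 87.2, 59.7, 68.6 and 49.1 CPM in vehicle animals (log2 1.94, SE 0.37, edgeR adjusted p = 0.0179), and missed the threshold on removing wild-type animal 1 or 3, or vehicle animal 1 (adjusted p up to 0.0565). Cybb, the catalytic subunit gene of the phagocyte NADPH oxidase, was the 1 gene called of 23 of iron and redox (log2 2.24, adjusted p = 0.0208), and lost its call on removing wild-type animal 2 or 3, or vehicle animal 1 or 2 (up to 0.068). Npas2, a paralog of Clock, was the 1 called of 16 circadian genes. It read 1.01 to 1.83 CPM against 3.80 to 5.85 CPM (log2 1.82, SE 0.33, adjusted p = 0.0118), and lost its call only without wild-type animal 4 (0.0592). Cdk1, the mitotic kinase gene, was the 1 called of 21 proliferation genes and read 0.55 to 0.878 CPM against 1.76 to 1.92 CPM (log2 1.48, adjusted p = 0.0201). Its call ended on removing wild-type animal 1 or 4, or vehicle animal 1 or 2 (up to 0.0731). Cryab, the small heat shock protein gene αB-crystallin, was the 1 called of 17 chaperone genes (log2 0.56, adjusted p = 0.0359), a call that ended in 6 omissions, among them that of vehicle 3 (0.0833).

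Border and blood cell types had few calls. All 10 perivascular macrophage markers lay above 0, with a median log2 fold change of 0.81. Of these 10, 1 was called, the transglutaminase gene F13a1 (log2 1.32, edgeR adjusted p = 0.0479). Its call ended in each omission except that of vehicle animal 2 (up to 0.141). Its level in vehicle animal 2 was 2.72 CPM, within the wild-type range of 2.52 to 3.51 CPM, and 8.28 to 9.81 CPM in the other 3. Mural cell markers had 1 of 11 called (median 0.50), the peptidase gene Anpep (log2 2.06, edgeR adjusted p = 0.0379). Anpep kept its call only without vehicle 2 or vehicle 3 (up to 0.112 otherwise). Endothelial markers had 0 of 14 called (median 0.12), meningeal and fibroblast markers 0 of 14 (median 1.00) and red blood cell genes 0 of 5 (median 0.65). Meningeal sums varied from 364 to 653 CPM in wild-type and from 374 to 1150 CPM in vehicle animals, and the prostaglandin synthase gene Ptgds of that list read 684, 248, 818 and 923 CPM in vehicle animals. Of 16 lymphocyte and granulocyte markers, 3 passed the filter on low counts and 0 were called.

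Of 15 mitochondrially encoded genes 5 were called higher and 1 was held, and the median log2 fold change of the list was 0.38. mt-Co3, a cytochrome oxidase subunit gene, was held, and read 8297, 7995, 9062 and 7941 CPM in wild-type and 12366, 11367, 11315 and 15337 CPM in vehicle animals (log2 0.60, SE 0.10, edgeR adjusted p = 0.00817). In the fit with the 8 libraries alone it missed the threshold (adjusted p = 0.0509), as did every other gene of the list. mt-Nd4l was called (log2 0.57, adjusted p = 0.0114) and missed the threshold without wild-type animal 4 (0.0506). The calls of mt-Co2 (log2 0.46, adjusted p = 0.0412) and mt-Co1 (log2 0.46, adjusted p = 0.0423) ended in 6 omissions each, all but those of wild-type 3 and vehicle 3. None of 28 nuclear genes of oxidative phosphorylation was called (median −0.01). Mitochondrial transcripts took 9.99 to 11.8% of counts in wild-type and 12.6 to 16.7% in vehicle animals, a share that also varies with RNA quality and handling, and its part was not tested.

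Few neuronal genes were called. None of 17 markers of pyramidal and granule neurons was called (median −0.03), none of 25 glutamate receptor and scaffold genes (median −0.06), none of 24 presynaptic vesicle genes (median 0.10), none of 13 GABA-A receptor genes (median −0.08), none of 25 potassium channel genes (median 0.12) and none of 20 genes of calcium channels and buffers (median −0.04). Of 17 inhibitory neuron markers 1 was called, Sst, the gene of the neuropeptide somatostatin. It read 182, 141, 121 and 103 CPM in wild-type and 63.6, 65.9, 84.1 and 98.1 CPM in vehicle animals, and fell by 0.81 on the log2 scale (SE 0.17, edgeR adjusted p = 0.0306). The call ended on removing wild-type animal 1 or 2, or vehicle animal 1 or 2 (up to 0.093), and in the IP libraries the difference of the group means was 0.46, the other direction. Of the neuropeptide genes it was also the 1 called of 25. Without vehicle animal 3, 2 of the 24 presynaptic genes were called higher, the active zone genes Rims1 (log2 0.66, edgeR adjusted p = 0.0229) and Bsn (0.64, adjusted p = 0.0229). Summed levels of 3 of these lists did not overlap between the groups, a description with no test. The glutamate receptor list summed to 5320 to 6280 CPM in wild-type and 4320 to 5160 CPM in vehicle animals, the GABA-A receptor list to 3040 to 3430 CPM against 2610 to 2840 CPM, and the neuropeptide list to 1320 to 1400 CPM against 1110 to 1270 CPM. Across all 55 lists no other sum was lower without overlap, while others were higher without overlap. The higher sums were those of core and plaque-associated microglia, Fc and pattern recognition receptors, complement, chemokines and cytokines, and interferon-stimulated genes. Lysosomal, matrix, mitochondrially encoded and transgene-related genes, cathepsins and lipid carriers were likewise higher. Cathepsins and cystatins summed to 2000 to 2390 CPM against 2730 to 4330 CPM, and lipid carriers to 1710 to 1990 CPM against 2290 to 2530 CPM.

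Immediate early genes, which neurons switch on with activity, gave no call. Of 20 tested, 18 were below 0, with a median log2 fold change of −0.45, which was −0.31 without vehicle animal 3. The spread within groups was wide. Fos, named after its values were seen, read 3.53, 9.78, 34.7 and 16.4 CPM in wild-type and 3.94, 2.20, 4.12 and 21.1 CPM in vehicle animals (adjusted p = 0.599), and Nr4a1 read 9.53 to 37.3 CPM against 5.53 to 22.1 CPM (adjusted p = 0.502). In both genes the highest wild-type animal was number 3 and the highest vehicle animal number 4.

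The enzymes that make and clear amyloid-β were not called, 0 of 18 with a median of 0.09. Bace1, which encodes the β-secretase, read 92.7, 85.5, 81.6 and 90.2 CPM in wild-type and 107, 113, 109 and 102 CPM in vehicle animals, without overlap (log2 0.30, SE 0.08, edgeR adjusted p = 0.0685). The gene of tau, Mapt, read 77.0 to 91.8 CPM against 106 to 139 CPM (log2 0.47, adjusted p = 0.133). None was called among 15 oligodendrocyte markers (median −0.02), 10 precursor markers, 14 neurogenesis genes, 19 genes of endoplasmic reticulum stress, 20 glycolysis genes, 12 glucocorticoid response genes, 18 genes of H3K9 methylation, 18 of the m6A machinery and 17 clustered protocadherins. Their medians lay between −0.14 and 0.32. The oligodendrocyte gene Mal was called lower without vehicle animal 3 alone (log2 −0.52, adjusted p = 0.0296). Of the markers of neighbouring forebrain, 0 of 19 were called, and their sum was 746 CPM in vehicle animal 3 against 282 to 435 CPM in the other 7. Prkcd, a kinase gene that marks thalamus, read 116 CPM there and 8.83 to 19.1 CPM in the other vehicle animals.

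Of the 24 held lower genes, Tmem242, Lsm12 and Clasp2 had the smallest p-values among protein-coding genes. Tmem242, a gene of a protein that helps assemble the mitochondrial ATP synthase, read 154, 89.98, 90.002 and 79.1 CPM in wild-type and 11.9, 10.6, 11.6 and 10.5 CPM in vehicle animals. It was 9.25-fold lower (log2 −3.21, SE 0.19, edgeR adjusted p = 6.71e-07). Lsm12, an RNA-binding protein gene of the Sm family, read 50.7, 47.9, 41.1 and 60.5 CPM in wild-type and 6.01, 5.91, 4.28 and 6.67 CPM in vehicle animals (8.73-fold lower, log2 −3.13, SE 0.19). Clasp2, whose product binds the growing ends of microtubules, read 156, 139, 156 and 164 CPM against 64.1, 64.0, 64.1 and 70.9 CPM (log2 −1.22, SE 0.09, adjusted p = 3.57e-06), and was the 1 gene called of 25 of cytoskeleton and axonal transport. In these 3 genes vehicle animal 3 was as far from the wild-type animals as the rest of its group.

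Of 1137 long noncoding RNAs tested 10 were called and 5 held (0.44%), 3 of them lower, against 77 held of 14592 protein-coding genes (0.53%). Of 17 brain long noncoding RNAs 3 were called, lower and held. Gt(ROSA)26Sor, the ubiquitous transcript of the Rosa26 locus, read 148, 312, 189 and 148 CPM in wild-type and 25.0, 27.3, 26.7 and 45.4 CPM in vehicle animals (log2 −2.68, SE 0.25, edgeR adjusted p = 8.01e-05). Mir124-2hg, the host transcript of a copy of the neuronal microRNA miR-124, read 64.0, 63.6, 143 and 124 CPM in wild-type and 27.1, 20.9, 35.0 and 32.1 CPM in vehicle animals (log2 −1.77, SE 0.25). The table holds the host transcript and not the microRNA. Pantr1, a long noncoding RNA next to Pou3f3, fell by 0.75 on the log2 scale, from 185 ± 17.8 to 110.0 ± 15.9 CPM. The other 14 were not called, and the list's median was 0.15.

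Lrrc49, a leucine-rich repeat gene of the tubulin polyglutamylase complex, read 65.0 to 74.2 CPM in wild-type and 24.4 to 37.2 CPM in vehicle animals (2.14-fold lower, SE of the log2 change 0.14, edgeR adjusted p = 0.00128). Frat1, an inhibitor of the kinase GSK-3 in Wnt signalling, read 38.7, 31.2, 27.4 and 29.1 CPM against 14.2, 16.6, 15.3 and 18.6 CPM (log2 −0.96, SE 0.16). Tspan12, a tetraspanin of Norrin and β-catenin signalling, read 335, 263, 266 and 296 CPM against 148, 148, 165 and 203 CPM (log2 −0.81, SE 0.13). For these last 2 genes the IP libraries gave the other sign, with group mean differences of 0.39 for Frat1 and 0.18 for Tspan12 on the log2 scale. For Tmem242, Lsm12 and Clasp2 the IP differences were −2.40, −3.13 and −1.45, and for Hjurp, Thy1 and Npc2 they were 2.82, 1.94 and 0.65. The IP libraries came from the same animals and are no independent test. Golt1b, Inpp4a, Klhl7 and Lonrf2, named after their values were seen, fell by 0.63, 0.63, 0.56 and 0.46 on the log2 scale. The predicted protein-coding gene Gm14391, also named after its values were seen, read 29.9, 21.2, 48.9 and 27.4 CPM in wild-type and 6.19, 12.4, 5.57 and 2.89 CPM in vehicle animals (log2 −2.25, SE 0.37, edgeR adjusted p = 0.0077).

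Several lower entries were pseudogenes, whose reads can be shared with a parent gene, so that their own levels are uncertain. Sums with a parent gene were examined for the Rps3a and Capza1 entries alone. Of 516 tested RefSeq pseudogenes 6 were held, and of 109 transcribed pseudogenes 1, all lower. The ribosomal protein gene copies Rps3a2 and Rps3a3 were low in vehicle animals, at 4.22 to 5.14 CPM and 0 to 0.157 CPM, and also in wild-type animal 3, at 3.82 and 0.834 CPM. In wild-type animals 1, 2 and 4 Rps3a2 read 111, 113 and 48.3 CPM and Rps3a3 83.4, 78.9 and 37.1 CPM. The gene Rps3a1 ran the other way, with 45.2, 51.1, 234 and 117 CPM in wild-type and 211 to 258 CPM in vehicle animals. Summed, the 3 entries read 239, 243, 238 and 202 CPM in wild-type and 262, 240, 216 and 258 CPM in vehicle animals, 231 ± 19.1 against 244 ± 21.0 CPM, which overlap. Capza1, an actin capping protein gene that was called higher (log2 0.65, edgeR adjusted p = 0.0447, up to 0.112 in the omissions), and Capza1-ps1 summed to 206 to 243 CPM in wild-type and 238 to 264 CPM in vehicle animals. Capza1-ps1 alone read 109, 106, 2.20 and 56.9 CPM in wild-type and 1.92 to 4.72 CPM in vehicle animals.

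The strongest of these entries was Gm10259, a pseudogene on chromosome 3, with 16.3, 18.8, 18.5 and 16.7 CPM in wild-type animals and no count in the 4 vehicle animals. It was at least 172-fold lower, against a floor of 3 counts per library. Gm6969, a pseudogene on chromosome 12, read 28.8, 1.53, 33.4 and 24.2 CPM in wild-type and 0.234 to 0.449 CPM in vehicle animals, so that wild-type animal 2 lay near the vehicle animals. Within the wild-type group, then, animal 3 differed from the others at the Rps3a and Capza1 copies and animal 2 at Gm6969.

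Some held genes lay near each other on the chromosome. Of 89 held genes with a position, 12 neighbouring pairs had starts at most 1 Mb apart. The same count was not made over all tested genes, so whether 12 is many was not tested. The regions of chromosomes 17 and 11 described next were chosen after their values were seen. On chromosome 17, Dynlt1b, a dynein light chain gene, and Tmem181b-ps start 9 kb apart (6429530 to 6450994) and both fell, by 1.14 and 2.00 on the log2 scale. Dynlt1b read 31.2 to 56.5 CPM in wild-type and 16.0 to 21.7 CPM in vehicle animals. Both have near-identical copies beside them, so that the share of their reads is uncertain. The copies Dynlt1a (log2 −0.19), Dynlt1f (0.09) and Tmem181a (−0.08) were not called. Dynlt1c (−0.64, wild-type mean 3.68 CPM) and Tmem181c-ps (−2.80, wild-type mean 0.535 CPM) also read lower and were not called. Tmem242 lies before them on the chromosome (5410864 to 5440260). Between it and Dynlt1b, the tested genes other than those copies ranged from −0.15 (Gtf2h5) to 0.41 (Snx9) and were not called.

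On chromosome 11, Tmem106a, Etv4, Lsm12 and Grn lie between 101582242 and 102436809, with log2 fold changes of 1.92, −6.06, −3.13 and 0.96. Etv4, an ETS family transcription factor gene, had 115 counts in wild-type and 1 in vehicle animals, a ratio of 102 with an exact 95% interval of 17.9 to 4051 for counting error. The 2 genes that rose and the 2 that fell alternate with tested genes that were not called, such as Dhx8 (−0.04) next to Etv4 and G6pc3 (0.44) next to Lsm12. By chromosome, the share of tested genes that were held ran from 0.12% on chromosome 8 and 0.16% on 13 and 14 to 1.29% on chromosome 1, where 10 rose and 3 fell. On chromosome 1 the held genes included Ctse, Rab7b, Hjurp, Cd84, Ogfrl1, Adhfe1, Pantr1, Inpp4a and Lonrf2.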

How the data were processed

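Hippocampal poly(A) RNA was sequenced by the SMART-seq method as an input for m6A immunoprecipitation. The submitters' processing notes name Trimmomatic 0.32, STAR 2.7.6a and Salmon 1.4.0 with the build GRCm38. The authors deposited estimated counts per gene (55291 rows), of which 22.1% of values above 0 were not whole, and TPM. Counts were rounded. Genes were filtered with filterByExpr (minimum count 10) and scaled by TMM, and vehicle was compared with wild-type by edgeR 4.0.16's quasi-likelihood F test (R 4.3.3) on 12 input libraries, MS1262 included, which left 9 residual degrees of freedom. Adjusted p is Benjamini-Hochberg over 17693 genes. Alternatives used DESeq2 1.42.0, and limma 3.58.1 on TPM. The edgeR procedure was tested on simulated data.

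The labels gave the groups, and no label gives a batch or says that animals share a litter. Intervals and floors cover counting error only, since reads carry no molecular identifiers. Symbols, positions and promoters come from RefSeq (GRCm38.p6). No strand of counting is given in the sources used here, so overlapping and antisense genes are uncertain. Genes were named by a rule: the transgene-related and sex-linked genes, Ttr, the 10 held genes of largest change in each direction (mean log2 CPM of at least 1, groups not overlapping, no predicted gene or pseudogene, in neither microglia list), up to 4 members of each list, the 5 most abundant choroid plexus markers and the 3 lowest p-values in each direction. Some genes that the rule names are not reported here. The members and lists were chosen with earlier results of these data known.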

Additional observations from a re-analysis of the deposited data

Results flagged for a closer look

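In 35 of 284 groups of 4 animals, 1 animal lay far from the other 3, with a gap to its nearest neighbour above Dixon's 95% critical share of the group's range. Chance gives about 1 in 20 such groups. Vehicle animal 3 accounted for 12 of the 35, and 7 of these 12 were choroid plexus markers or their sum, which are not independent of each other and were listed to describe this animal. For Ifitm3 (17.1 CPM, others 13.1 to 13.4), vehicle animal 1 stood apart. For Ttr (7050 CPM, others 55.4 to 69.8), Cd84 (6.12 CPM, others 16.5 to 17.3) and Cldn2 (41.3 CPM, others 1.27 to 2.03), vehicle animal 3 stood apart. Vehicle animal 3 also differed for Pifo (11.1 CPM, others 3.32 to 3.91), Prkcd (116 CPM, others 8.83 to 19.1) and Igfbp5 (76.7 CPM, others 111 to 115). It was apart too for B2m (92.7 CPM, others 162 to 163), Enpp2 (13600 CPM, others 639 to 816) and Prlr (256 CPM, others 14 to 24.7). The same animal was apart for Kcnj13 (237 CPM, others 5.02 to 15.7), Kl (117 CPM, others 7.98 to 11) and the sum of choroid plexus markers (21800 CPM, others 767 to 976). For Gt(ROSA)26Sor (45.4 CPM, others 25 to 27.3), Clasp2 (70.9 CPM, others 64 to 64.1) and Mapt (139 CPM, others 106 to 111), vehicle animal 4 stood apart. Vehicle animal 4 also differed for the sum of lymphocyte and granulocyte markers (15.7 CPM, others 0.516 to 2.24) and the sum of inhibitory neuron markers (861 CPM, others 965 to 979). For Tmem106a (1.94 CPM, others 1.01 to 1.14), Rab7b (3.32 CPM, others 1.45 to 1.67) and Tmem242 (154 CPM, others 79.1 to 90), wild-type animal 1 stood apart. Wild-type animal 1 also differed for Mettl14 (15.9 CPM, others 12.4 to 12.9). For Ctsd (252 CPM, others 184 to 187), wild-type animal 2 stood apart. For Ttr (748 CPM, others 31.3 to 59.3) and Neurod6 (561 CPM, others 761 to 789), wild-type animal 3 stood apart. The same animal differed for Tlr2 (0.834 CPM, others 0.451 to 0.481), Lcp2 (2.72 CPM, others 3.92 to 4.04) and Plin2 (12.5 CPM, others 17.5 to 18.4). It also differed for mt-Co1 (23700 CPM, others 18800 to 19500), Enpp2 (2020 CPM, others 747 to 818) and Kcnj13 (32.6 CPM, others 2.52 to 6.55). Wild-type animal 3 was apart as well for the sum of choroid plexus markers (2970 CPM, others 855 to 959) and the sum of lymphocyte and granulocyte markers (14.8 CPM, others 1.46 to 2.73). For Mal (313 CPM, others 251 to 258) and C1qc (2.41 CPM, others 2.92 to 3), wild-type animal 4 stood apart.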

How the results depend on the processing

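All 41 held genes named by the rule kept their direction in every alternative, and 717 of 735 such values stayed past the threshold. The other 18 were limma fits on TPM, except that of mt-Co3 in the fit of 8 libraries. The alternatives include the 8 single omissions, in which held genes are called by definition, so those values could not fail. Over 126 named genes, 2013 of 2244 values stayed on the same side of the threshold, 210 lost significance and 21 gained it. Genes that were not called could change sign, as Ttr and Enpp2 did without vehicle animal 3. Leaving out single animals gave 77 to 229 higher genes (187 with all) and 31 to 83 lower genes (91 with all), fewest higher without wild-type 4. The fit of 8 libraries called 86 higher and 32 lower, DESeq2 405 and 205. limma on log2(TPM + 1) called 60 and 195, and on log2(TPM + 0.1) 81 and 200, with median log2 fold changes of −0.0941 and −0.14 over all genes. Without both animals numbered 3, an alternative chosen after seeing the data, 200 were higher and 48 lower. The choroid plexus median (1.815) was −0.628 to 2.359 over single omissions and −0.071 without both animals numbered 3, and it had no value when these genes were removed. The cause of these shifts was not tested.

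With the replicate number as a block, 108 genes were higher and 26 lower. After the group means were taken off, same-numbered wild-type and vehicle animals had correlations of −0.0798, −0.0398, −0.0554 and −0.356 over 8793 genes. Differently numbered animals were not compared, so these values cannot show whether the numbers pair the animals.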
